A study of Mus musculus with 13 samples.

Results

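Of 1203 KLF1 peaks called in wildtype fetal liver, 361 (30.01%, exact Clopper-Pearson 95% interval 27.4 to 32.7%) shared at least 1 base with a KLF1 peak called in MommeD45 fetal liver. These 361 retained peaks were chosen by that overlap alone, so the peak calls of both libraries fixed the members. The other 842 wildtype peaks had no MommeD45 peak over them and are called wildtype-only below. The MommeD45 list held 485 peaks, of which 362 overlapped a wildtype peak (74.6%) and 123 did not. All values of the peaks themselves therefore describe the selection, and no test was made on them.

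Livers were taken from mouse embryos at 14.5 days post coitum. For wildtype and for MommeD45 livers there was 1 chromatin library precipitated with an antibody to KLF1 and 1 input library, each from 2 pooled replicates. MommeD45 is an allele of Klf1, which the series title places in the second linker between the zinc fingers, and the labels do not give how many copies the MommeD45 livers carried. The mRNA came from livers of 3 genotypes with 3 replicates each, Klf1 +/-, Klf1 D45/- and Klf1 -/-, after removal of globin transcripts and selection of poly(A) RNA. The +/- livers carried 1 wildtype and 1 null allele, the D45/- livers 1 MommeD45 and 1 null allele, and the -/- livers carried the null allele alone. All mRNA groups thus carried a null allele, and no mRNA from livers with 2 wildtype alleles was part of the comparison. The chromatin genotypes and the mRNA genotypes are not the same.

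KLF1 regulates transcription in red cell precursors, the main cell type of the liver at this stage, through zinc fingers. It binds CACCC-type sequences in promoters and enhancers and is known as an activator of the adult beta globin gene, of genes for heme synthesis, of the red cell membrane skeleton and of the cell cycle. The linkers between zinc fingers are short stretches that set how neighbouring fingers lie along the DNA.

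The sequences before the transcription start are shown for 6 genes with a retained summit at the start. They let the place of each summit be compared with that of the CACCC-type letters that KLF1 is known for. They are the 250 bases before the start from RefSeq, build GRCm38.p6, written 5′ to 3′ on the strand of the gene. Capitals mark matches on either strand to CCNCNCCC, a consensus of KLF1 sites that contains the beta globin site CCACACCC, and to CACCC, whose reverse complement is GGGTG. The 6 were picked after their values were seen, from 13 named genes with such a summit. They lie at chr7:103827929-103828178 on the minus strand for Beta-s, which RefSeq lists as Hbb-bs, and at chr11:32296242-32296491 on the plus strand for Hba-a2. Those of Ermap and Pgam1 lie at chr4:119189996-119190245 on the minus strand and at chr19:41911621-41911870 on the plus strand. Those of Ttll12 and Rgcc lie at chr15:83595158-83595407 and chr14:79301636-79301885, both on the minus strand.
Beta-s: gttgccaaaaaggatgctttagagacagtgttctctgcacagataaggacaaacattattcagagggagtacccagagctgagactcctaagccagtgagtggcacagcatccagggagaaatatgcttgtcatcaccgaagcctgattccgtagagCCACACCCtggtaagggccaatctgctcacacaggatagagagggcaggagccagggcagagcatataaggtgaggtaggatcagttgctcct
Hba-a2: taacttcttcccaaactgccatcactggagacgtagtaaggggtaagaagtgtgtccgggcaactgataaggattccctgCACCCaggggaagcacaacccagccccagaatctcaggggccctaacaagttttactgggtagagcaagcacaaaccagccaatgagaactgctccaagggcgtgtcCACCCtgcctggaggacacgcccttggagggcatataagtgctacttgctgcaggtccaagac
Ermap: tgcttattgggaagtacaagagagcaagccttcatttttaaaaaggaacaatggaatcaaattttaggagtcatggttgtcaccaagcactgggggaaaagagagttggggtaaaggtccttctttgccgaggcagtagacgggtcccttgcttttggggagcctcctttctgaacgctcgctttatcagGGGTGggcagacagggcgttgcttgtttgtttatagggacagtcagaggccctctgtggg
Pgam1: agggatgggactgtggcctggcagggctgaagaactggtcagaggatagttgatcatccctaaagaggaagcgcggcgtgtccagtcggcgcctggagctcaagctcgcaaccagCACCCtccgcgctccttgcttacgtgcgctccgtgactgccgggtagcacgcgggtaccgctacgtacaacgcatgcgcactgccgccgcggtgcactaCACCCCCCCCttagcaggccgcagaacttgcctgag
Ttll12: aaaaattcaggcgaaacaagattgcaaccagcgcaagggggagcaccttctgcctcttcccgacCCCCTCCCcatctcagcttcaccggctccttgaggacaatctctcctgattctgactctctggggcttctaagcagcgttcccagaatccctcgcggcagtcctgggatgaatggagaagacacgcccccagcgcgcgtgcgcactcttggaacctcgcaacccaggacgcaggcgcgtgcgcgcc
Rgcc: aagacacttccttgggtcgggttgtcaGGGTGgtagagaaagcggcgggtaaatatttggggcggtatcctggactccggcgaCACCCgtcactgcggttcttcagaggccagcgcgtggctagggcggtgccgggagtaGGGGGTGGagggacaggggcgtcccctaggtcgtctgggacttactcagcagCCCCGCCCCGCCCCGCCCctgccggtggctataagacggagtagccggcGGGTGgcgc

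Beta-s is an adult beta globin gene. Its CCACACCC begins 93 bases before the start, and the wildtype summit lay 73 bases before the start of the locus in the authors' deposited table. Hba-a2 is an adult alpha globin gene, and its nearer CACCC begins 63 bases before the start, beside a summit 56 bases before it. Ermap codes for a red cell surface protein. The reverse complement of CACCC begins 60 bases before its start, and the summit lay 37 bases before it. In Rgcc, a regulator of the cell cycle, 4 matches to CCNCNCCC begin 110, 58, 53 and 48 bases before the start, and the summit lay 58 bases before it. In Pgam1, a glycolytic enzyme, the match to CCNCNCCC begins 34 bases before the start and the summit lay 19 bases after it. In Ttll12, a member of the tubulin tyrosine ligase-like family, the match to CCNCNCCC begins 186 bases before the start, while the summit lay 65 bases before it. Among these 6 genes the summit was thus within 50 bases of marked letters in all but Ttll12. The 6 were picked with these values known, so they give no rate for retained peaks. CCNCNCCC was found in 49.2% and CACCC in 56.8% of the windows of all genes. How often a match falls this near to any given place was not tested. In the named genes not shown, the nearest match centre lay 99 bases from the summit in Mt2, 132 in Mt1 and 63 in Add1. It lay 0, 10 and 13 bases away in Ankrd37, Slc16a10 and AW549877, and Idi1 had no match. Locus lengths differed between builds by 206 bases in Mt1, 53 in Add1, 564 in Ankrd37 and 19 in Slc16a10, so those places are less sure. A match is a description of letters and not of a bound site.

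In windows from 250 bases before to 50 after the start, CCNCNCCC on either strand was found in 28 of the 33 genes with a retained summit in that window (84.8%, exact 95% interval 68.1 to 94.9%). It was found in 54 of 59 genes with a wildtype-only summit there (91.5%, 81.3 to 97.2%), in 69.9% of the windows of all listed genes and in 49.2% of all 27024 windows. The median GC content of these windows ran in the same order as those shares, at 62.7, 64.7, 60.7 and 52.7%, and its part in the shares was not tested. The exact letters CCACACCC were found in 1 of the 33 retained windows (3.03%), 4 of the 59 wildtype-only windows (6.78%), 3.37% of the windows of all listed genes and 3.60% of all windows. CACCC was found in 20 of 33 (60.6%), 43 of 59 (72.9%), 64.7% of the windows of listed genes and 56.8% of all, and overlaps CCACACCC. AGATAA, a form of the site bound by GATA factors, was found in 1 of 33 (3.03%), 9 of 59 (15.3%), 147 of 1633 windows of listed genes and 11.4% of all. For none of the 4 motifs was the retained share above the wildtype-only share, and the exact intervals of the 2 groups overlapped for all 4.

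Retained peaks were the stronger part of the wildtype list, as a description of the rule. The authors' fold enrichment over local background ran from 2.51 to 48.9 in wildtype, with quartiles of 4.95 and 8.70 around a median of 6.29. In wildtype-only peaks it ran from 1.98 to 33.6 with a median of 4.59. Retained peaks had a median length of 318 bases and a median of 41 stacked fragments at the summit, and wildtype-only peaks 245 bases and 27.5 fragments. The ranges of the 2 groups overlapped, while the third quartile of wildtype-only peaks, at 5.52, lay below the retained median.

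The share retained followed wildtype strength. Of the strongest 10 wildtype peaks 9 were retained, and of the strongest 100 it was 83. When wildtype peaks were ranked by fold enrichment and split into 10 equal groups, 95 of 121 in the top group were retained (78.5%, exact 95% interval 70.1 to 85.5%). The next groups down held 52.5, 35.0 and 35.8%, and the lowest held 12 of 121 (9.92%, 5.23 to 16.7%). The lowest 5 groups had no steady order, and the highest of them held 24 of 120. The depths of the libraries, which bear on which weak peaks are called, are not known, and their part in this order was not tested.

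**Figure D1:**
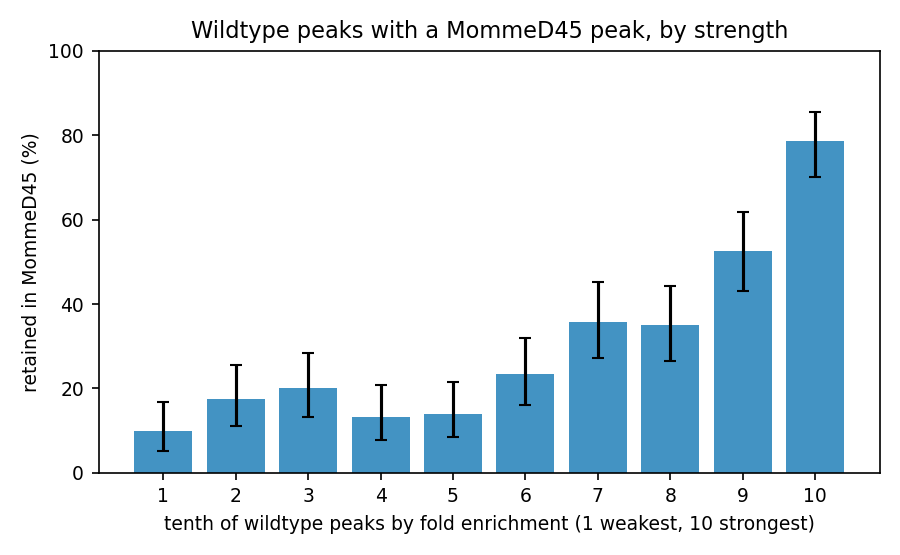
Share of wildtype KLF1 peaks that overlap a MommeD45 peak, in percent, for 10 equal groups of the wildtype peaks ranked by fold enrichment. Bars are shares and lines are exact 95% intervals for counting error; the share is 78.5% in the strongest group and 9.92% in the weakest.

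The strongest member was a peak of 440 bases at chr15:56455073-56455512 (mm9), with a fold enrichment of 48.9 in wildtype and 42.9 in MommeD45. It had no gene of the authors' deposited table within 10 kb. The second, at chr4:34497561-34498037, had 47.9 and 30.6, and it too was near no listed gene. The third, at chr7:26004693-26005246, lay 64 bases before the start of Dedd2, whose product is a death effector domain protein, with 42.9 and 33.9. The fourth, at chr17:25715822-25716409, was the strongest in MommeD45, with 40.5 in wildtype and 44.9 in MommeD45. The fifth, at chr19:41986095-41986658, lay at the start of Pgam1 with 39.5 and 29.7. The sixth, at chr14:70865983-70866442, lay inside Phyhip with 37.2 and 30.6. Of the 10 strongest members, 9 had a MommeD45 fold of 24.0 or more, and the exception was chr13:95558633-95559073 with 31.1 and 8.16. The 5 strongest MommeD45 peaks in the set were all among the 6 strongest in wildtype.

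At the other end, the weakest member lay at chr9:100446473-100446681, with a fold enrichment of 2.51 in wildtype and 4.06 in MommeD45. The next, at chr13:23646909-23647171, had 2.59 and 3.03. Just inside the overlap rule, chr13:23713472-23713846 shared 9 bases with its MommeD45 peak, with summits 610 bases apart. Just outside it, the wildtype peak at chr11:48613692-48613929 with a fold of 4.54 was 73 bases from a MommeD45 peak, and those at chr11:58115878-58116137 and chr12:113052115-113052416 were 91 and 109 bases away. The strongest wildtype-only peak, at chr9:66351774-66352238 inside Herc1, had a fold of 33.6. Of the 361 members, 4 shared under 50% of the shorter peak with their MommeD45 peak. With at least 50% of both peaks shared the members numbered 325, and with summits at most 100 bases apart 339.

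Where a peak was retained, its summit was nearly always in the same place. The wildtype and MommeD45 summits were a median of 22 bases apart, with quartiles of 10 and 39 bases. They were within 50 bases in 296 members (82.0%) and within 100 bases in 339 (93.9%), and 6 members had summits more than 200 bases apart. The wildtype peak was the longer in 317 members, and one peak lay wholly inside the other in 245 (67.9%). The overlap rule limits the distance to about the length of the peaks, which had a median of 318 bases in wildtype and 233 in MommeD45, and the distances were mostly far below that.

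**Figure D2:**
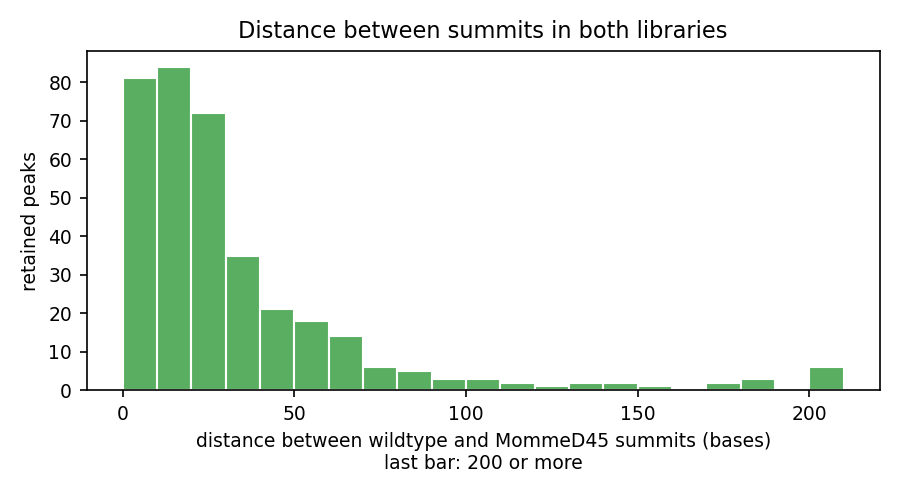
Number of retained peaks by the distance in bases between the wildtype and MommeD45 summits, in bars of 10 bases, with the last bar holding the 6 members at more than 200. Most members lie at the left, with 82.0% within 50 bases.

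Enrichment in MommeD45 was mostly lower than in wildtype at the same member. The MommeD45 fold had a median of 4.98 and ran from 2.85 to 44.9. The ratio of MommeD45 to wildtype fold had a median of 0.796, was below 1 in 272 members and above 1 in 89, and was under 0.5 in 40. It depended on where the wildtype value stood, being 0.676 in the 181 members of higher wildtype fold and 0.944 in the 180 of lower fold, with the wildtype value entering both the ranking and the ratio. Across the 361 peaks the fold enrichments had a Spearman coefficient of 0.610 and a Pearson coefficient of 0.772 on the log2 scale, between 1 library per genotype with its own input. The authors' values were not scaled between libraries, so a ratio gives the order among members and not a loss of binding.

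Members with the largest drop included chr1:9738293-9738696, with 18.2 in wildtype and 3.60 in MommeD45. A peak 7012 bases from the start of the embryonic alpha-like globin gene Hba-x, at chr11:32183391-32183953, had 20.3 and 6.69. Hba-x names it only as a gene of the authors' deposited table, and a gene that is not listed may lie nearer. The member near Klf1 itself, at chr8:87432293-87432688, had 28.7 and 10.6. It is given for its gene and was not among the 5 members of lowest ratio. At the other side, a member inside Gypc, the gene of glycophorin C, had 5.73 in wildtype and 9.89 in MommeD45. A member near Slc4a1, the gene of the red cell anion exchanger, at chr11:102236557-102236850, had 3.31 and 5.65.

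**Figure D3:**
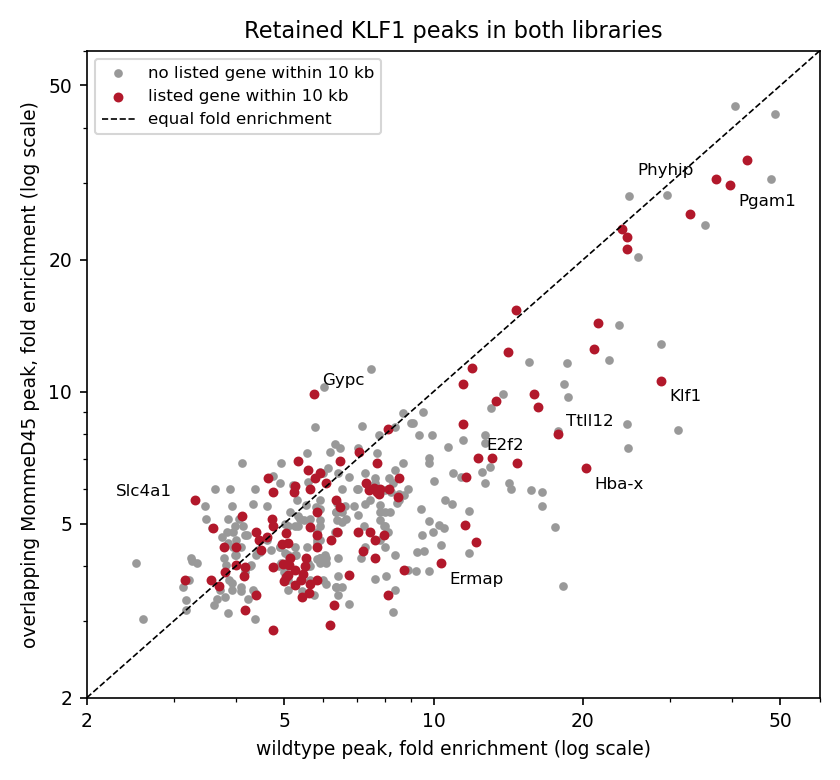
Fold enrichment of each of the 361 retained peaks in wildtype (horizontal, log scale) and of the overlapping MommeD45 peak (vertical, log scale), with the line of equal values. Members near a listed gene are red and a few are named by it; 272 of 361 points lie below the line.

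Members lay on all autosomes and the X chromosome. Chromosome 11 held the most, with 35 of 134 wildtype peaks retained. The share was highest on chromosome 15 with 21 of 51 (41.2%) and chromosome 1 with 25 of 62 (40.3%). It was lowest among the autosomes on chromosome 4 with 19 of 81 (23.5%), and it was 2 of 12 on the X chromosome. The exact interval of each of the 21 chromosomes, the mitochondrial one included, contained the share over all wildtype peaks. Another wildtype summit lay within 10 kb for 57 members (15.8%) and for 132 wildtype-only peaks (15.7%).

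The gene measurements come from another assay and did not enter the rule. The authors' deposited table lists only genes that they called at a q under 0.05 by cuffdiff in at least 1 of 3 comparisons, with 1 abundance per genotype, taken to be FPKM. A listed gene lay within 10 kb of 111 of the 361 members (30.7%, exact 95% interval 26.0 to 35.8%), against 237 of the 842 wildtype-only peaks (28.1%, 25.1 to 31.3%) and 28.9% of all wildtype peaks. The other 250 members had none, and their median wildtype fold of 6.36 was like that of all members. These 111 members were near 116 of the 2036 listed genes (5.70%), and 238 (11.7%) were near a wildtype-only peak. These shares are the background for the counts of gene groups given further on, whose few members allow no statement that a group differs from them. A peak near a gene is a position, and which gene a peak acts on was not measured. Genes outside the table were not placed, so one of them may lie nearer to a peak than the gene named. In whole liver, fewer red cell precursors and less RNA per precursor cannot be told apart, and this holds for every comparison of mRNA here.

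Most listed genes near retained peaks were lower without KLF1. The authors called 879 genes lower in -/- than in +/-, which is 6.78% of the genes tested, and 97 of them (11.0%) lay near a retained peak. By peaks, 94 of 361 (26.0%, exact 95% interval 21.6 to 30.9%) were near such a gene, against 190 of 842 wildtype-only peaks (22.6%) and 23.6% of all wildtype peaks, so the retained share was close to the background of wildtype peaks. The authors called 907 genes higher in -/- (7.00% of those tested), and 10 of them (1.10%) lay near a retained peak, by 10 members (2.77%, with 3.41% of all wildtype peaks). The median log2 ratio of -/- against +/- in the authors' deposited table was -1.25 for the 97 lower genes, with -1.03 over all 877 lower genes with a finite ratio and -1.17 over the 163 near a wildtype-only peak alone.

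Fewer genes near retained peaks were called between D45/- and +/-. The authors called 142 genes lower in D45/- than in +/- (1.10% of those tested), and 12 of them (8.45%, exact 95% interval 4.44 to 14.3%) were near a member. By peaks, 12 of 361 members (3.32%, 1.73 to 5.73%) were near such a gene, against 39 of 842 wildtype-only peaks (4.63%, 3.31 to 6.28%) and 4.24% of all wildtype peaks, with overlapping intervals. Of 86 genes called higher in D45/- (0.663% of those tested), 1 was near a member, and 0.748% of all wildtype peaks were near such a gene. The authors called 451 genes higher in D45/- than in -/- (3.48% of those tested), and 73 (16.2%) were near a member. By peaks, these were 73 of 361 members (20.2%, 16.2 to 24.7%), 125 of 842 wildtype-only peaks (14.8%, 12.5 to 17.4%) and 16.5% of all wildtype peaks. Of 634 genes called lower in D45/- than in -/- (4.89% of those tested), 6 were near a member, and 2.16% of all wildtype peaks were near such a gene. The 3 comparisons share libraries, so their counts are not independent. No test of the difference between retained and wildtype-only peaks was made.

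**Figure D4:**
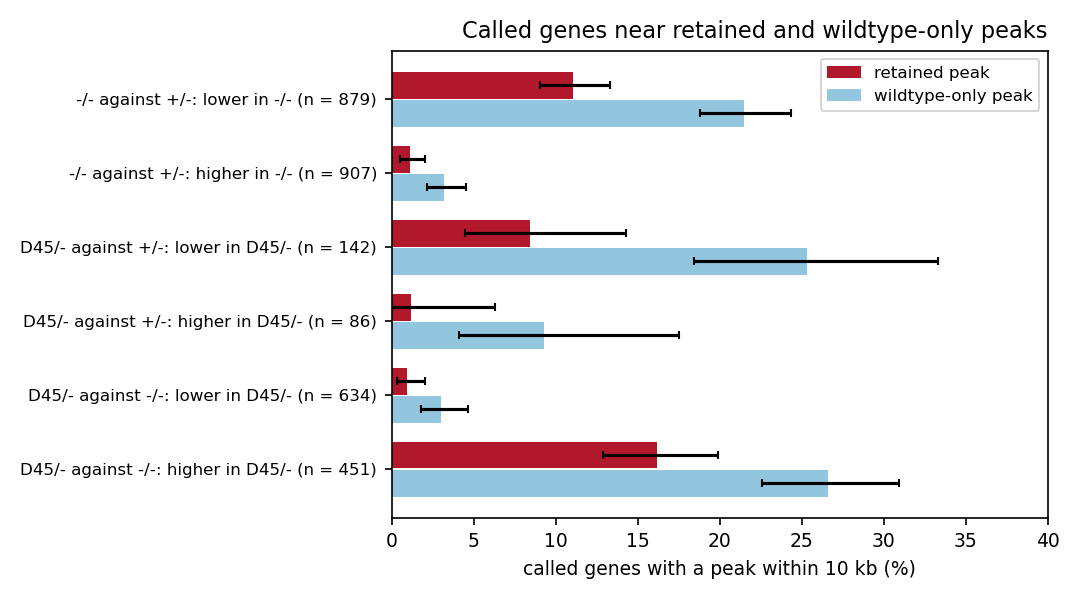
Percent of the genes that the authors called in each comparison and direction that lie within 10 kb of a retained peak (red) or of a wildtype-only peak (blue), with exact 95% intervals for counting error. Of the retained bars the highest are genes higher in D45/- than in -/-, at 16.2%, and genes lower in -/- than in +/-, at 11.0%; there are 842 wildtype-only peaks to 361 retained ones, so the 2 colours are not on an equal footing.

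Where strand was known, members near a listed gene were often at its start. For 100 pairs of a member and a listed gene with known strand, the summit lay within 1 kb of the start in 48, elsewhere inside the locus in 24, upstream in 13 and downstream in 15. Among 220 pairs with a wildtype-only peak, the share within 1 kb of the start was 43.2%, against 48.0% (exact 95% interval 37.9 to 58.2%) for members. Several members shared a gene in 9 cases, led by Ppp1r10, a regulatory subunit of protein phosphatase 1, with 3 retained peaks. Ank1, Hba-x, Map4k5, Mt1, Mt2, Parp16, Rbm38 and Slc4a1 had 2 each, and the pair near Mt1 and Mt2 is the same.

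Klf1 was the first gene checked, since it is the gene that was altered. Its abundance in the authors' deposited table was 378 FPKM in +/-, 398 FPKM in D45/- and 34.8 FPKM in -/-, with log2 ratios of -3.44 for -/- against +/- and 3.52 for D45/- against -/-, both at a q of 0.00159, the smallest in the table. No call was made between D45/- and +/-. The member near Klf1 lay downstream of the locus, with its summit 6652 bases from the start.

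The globin genes of the table, the oxygen carriers, had 4 of 7 listed members near a retained peak and 2 near a wildtype-only peak alone. The median log2 ratio of -/- against +/- was -2.19 for those near a member and -2.14 over all called globin genes. Beta-s, in the authors' deposited table, was at 1749 FPKM in +/-, 1362 FPKM in D45/- and 98.2 FPKM in -/-, with a log2 ratio of -4.16 for -/- against +/- and 3.79 for D45/- against -/-. Its retained peak, at chr7:110975881-110976709, had 5.63 in wildtype and 3.65 in MommeD45. Hba-x was at 1249, 687 and 274 FPKM in the authors' deposited table in the same order of genotypes. Its 2 retained peaks lay downstream of the locus, with summits 7012 and 8925 bases from its start. A globin gene that is not listed may lie nearer to them. Hba-a2 had 935 FPKM in D45/- and 295 FPKM in -/- in the authors' deposited table, a log2 ratio of 1.66, and shares the retained peak at chr11:32196235-32196639 (15.9 and 9.89) with Hbq1a, a theta-like globin gene. All 4 were called higher in D45/- than in -/-, none was called lower in D45/- than in +/-, and 3 were called lower in -/- than in +/-. The levels were measured after depletion of globin transcripts, and rows of near-identical globin genes may share reads.

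Heme synthesis makes the iron-bearing group of hemoglobin. Of 15 listed genes, 5 lay near a member and 3 near a wildtype-only peak alone. The authors called the 5 near a member, of 12 in the whole list, lower in -/-. The median log2 ratio was -1.51 for the 5 and -1.42 over all called genes of the list. In the authors' deposited table Alad, the enzyme that joins 5-aminolevulinate into porphobilinogen, was at 814 FPKM in +/-, 504 FPKM in D45/- and 72.9 FPKM in -/-. Its member, inside the locus, had a fold of 4.15 in wildtype and 3.79 in MommeD45. Urod, a decarboxylase of the pathway, was at 850, 727 and 345 FPKM in the authors' deposited table in the same order, and its member 564 bases after the start had 8.72 and 3.92. Ppox, which oxidises protoporphyrinogen, and Abcb10, a mitochondrial transporter, had members with 5.13 and 4.17 and with 12.0 and 11.3. All 5 genes had D45/- above -/- and no call between D45/- and +/-.

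The membrane skeleton and the surface proteins give the red cell its shape. Of 11 listed skeleton genes, 3 lay near members and 2 near a wildtype-only peak alone. In the whole list 10 were called lower in -/-, among them the 3 near members. The median log2 ratio was -2.35 for the 3 and -1.58 over all called genes of the list. Ank1, ankyrin, which ties the skeleton to the membrane, was at 309 FPKM in +/-, 219 FPKM in D45/- and 47.2 FPKM in -/- in the authors' deposited table. Its 2 members inside the locus had 5.27 and 3.92, and 4.74 and 5.13. Add2, beta adducin, was at 259, 285 and 50.9 FPKM in the authors' deposited table in the same order, with 5.10 and 4.02 at its member. Add1, alpha adducin, was at 288, 231 and 122 FPKM in the authors' deposited table, and its member 116 bases before the start had 6.36 and 5.65.

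Of 12 listed surface genes, 3 lay near members and 4 near a wildtype-only peak alone. In the whole list 10 were called lower in -/-, among them the 3 near members. These 3 had a median log2 ratio of -1.88, and all called genes of the list -1.81. Slc4a1 was at 2086 FPKM in +/-, 1690 FPKM in D45/- and 568 FPKM in -/- in the authors' deposited table, and its members were the pair with 5.04 and 4.74 and with 3.31 and 5.65. Ermap was at 416, 286 and 79.5 FPKM in the authors' deposited table, and its member at the start had 10.4 and 4.06. Gypc was at 144, 110 and 59.6 FPKM in the authors' deposited table. No skeleton or surface gene near a member was called lower in D45/- than in +/-.

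Of 20 listed membrane transporters, 2 lay near members and 4 near a wildtype-only peak alone. In the whole list 15 were called lower in -/-, among them the 2 near members. These 2 had a median log2 ratio of -2.09, and all called genes of the list -1.21. Kcnn4, the calcium-activated potassium channel of red cells, was at 170 FPKM in +/-, 75.5 FPKM in D45/- and 18.6 FPKM in -/- in the authors' deposited table. Its log2 ratios in the authors' deposited table were -1.17 for D45/- against +/-, -3.19 for -/- against +/- and 2.02 for D45/- against -/-, each at a q of 0.00159. Its member inside the locus, 6940 bases after the start, had 7.70 in wildtype and 6.89 in MommeD45. A second wildtype peak at chr7:25154694-25154887, with its summit 452 bases before the start and a fold of 3.02, had no MommeD45 peak over it. Slc16a10, an amino acid transporter, was at 32.5, 29.0 and 16.4 FPKM in the authors' deposited table, and its member 74 bases before the start had 6.06 and 6.18.

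Of 15 listed erythroid transcription factors, 5 lay near members and 3 near a wildtype-only peak alone. All 5 near members were called lower in -/- than in +/-, as were 13 of the whole list. These 5 had a median log2 ratio of -1.25, and all called genes of the list -1.26. Tal1, a basic helix-loop-helix factor of blood formation, was at 319 FPKM in +/-, 295 FPKM in D45/- and 151 FPKM in -/- in the authors' deposited table, and its member 2874 bases before the start had 7.44 and 4.77. Its relative Lyl1 was at 202, 165 and 82.4 FPKM in the authors' deposited table, with 8.52 and 6.36. Nfe2 codes for a subunit of a leucine zipper factor that acts at the globin loci. It was at 225, 232 and 94.8 FPKM in the authors' deposited table, with 6.48 and 6.95 at its member. Zfpm1, the partner of GATA1 known as FOG1, was at 381 FPKM in +/- and 222 FPKM in -/- in the authors' deposited table, with 5.59 and 6.62. At Nfe2 and Zfpm1 the MommeD45 fold was thus the higher, while at Tal1 and Lyl1 it was the lower.

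Of 15 listed cell cycle genes, 14 were called lower in -/-, among them the 4 that lay near members, and 0 lay near a wildtype-only peak alone. These 4 had a median log2 ratio of -1.61, and all called genes of the list -1.12. E2f2, an activator of the genes of DNA synthesis, was at 203 FPKM in +/-, 83.8 FPKM in D45/- and 20.6 FPKM in -/- in the authors' deposited table, with log2 ratios of -1.28 for D45/- against +/- and -3.31 for -/- against +/-. Its member inside the locus at chr4:135733856-135734235 had 12.3 in wildtype and 7.05 in MommeD45, and a second wildtype peak inside the same locus, at chr4:135745781-135746090 with a fold of 6.48, had no MommeD45 peak over it. E2f4, a relative that acts with pocket proteins, was at 413, 198 and 80.7 FPKM in the authors' deposited table, a log2 ratio of -1.06 for D45/- against +/-, with 7.21 and 4.32 at its member. Both E2f genes lay between the other genotypes in D45/-. Ccnd3, cyclin D3, was at 293, 305 and 160 FPKM in the authors' deposited table, with 5.27 and 3.61. Mcm2, a subunit of the replicative helicase, was at 313 FPKM in +/- and 179 FPKM in -/- in the authors' deposited table, with 4.44 and 4.59.

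The other 9 genes lower in D45/- than in +/- near a member belonged to none of the lists. Ubac1, which holds ubiquitin-associated domains, was at 305 FPKM in +/-, 114 FPKM in D45/- and 25.6 FPKM in -/- in the authors' deposited table, with log2 ratios of -1.42 for D45/- against +/- and 2.16 for D45/- against -/-. Mpst, a sulfur transferase, was at 114, 49.5 and 26.5 FPKM, and Ttll12 at 67.5, 29.8 and 15.5 FPKM, in the authors' deposited table. In these 3 genes the D45/- level was called both below +/- and above -/-. Rgcc was at 22.7 FPKM in +/-, 3.39 FPKM in D45/- and 4.26 FPKM in -/- in the authors' deposited table, with log2 ratios of -2.74 for D45/- and -2.41 for -/-, each against +/-. Agpat4, an acyltransferase of lipid synthesis, was at 25.4, 9.10 and 8.03 FPKM in the authors' deposited table, and its member had 23.9 and 23.5. A second wildtype peak inside Agpat4, at chr17:12378804-12379098 with a fold of 6.07, and one downstream of Lrrc56, at chr7:148401533-148401852 with 3.47, had no MommeD45 peak over them. Such second peaks were not limited to genes lower in D45/-, and Alad, Beta-s, Ank1 and Gpx1 had them too. Of 27 listed genes near both kinds of peak, 4 were called lower in D45/- than in +/-, as were 8 of 89 near retained peaks only. Eef2k, the kinase of elongation factor 2, was at 31.1, 13.0 and 8.45 FPKM, and Lrrc56, a leucine-rich repeat gene, at 12.1, 5.95 and 3.36 FPKM, in the authors' deposited table. Spata13, a guanine nucleotide exchange factor, was at 9.91, 5.83 and 4.50 FPKM in the authors' deposited table. Phyhip was at 1.59, 0.276 and 0.0526 FPKM in the authors' deposited table, and the number of reads behind such low levels is not known. Rgcc, Agpat4, Eef2k, Lrrc56, Spata13 and Phyhip were not called between D45/- and -/-.

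Across the 12 members near the 12 genes called lower in D45/-, the wildtype fold had a median of 7.50 and the MommeD45 fold 5.44. Their ratio had a median of 0.835 and ran from 0.449 to 1.01, and it was 0.789 over the 94 members near a gene lower in -/- and 0.799 over the 250 members near no listed gene. The ratio exists only for peaks called in both libraries, so it says nothing of peaks that were not called in MommeD45, and 36 of the 142 genes lower in D45/- lay near a wildtype-only peak. The median log2 ratio of D45/- against +/- was -1.23 for these 12 genes in the authors' deposited table, beside -1.12 over all 141 with a finite ratio. The 1 gene near a member called higher in D45/- was Dcaf6, which codes for a substrate receptor of a ubiquitin ligase. It was at 31.4 FPKM in +/- and 54.2 FPKM in D45/- in the authors' deposited table, a log2 ratio of 0.79 at a q of 0.0178, with a member 757 bases before the start at 5.44 and 3.39.

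**Figure D5:**
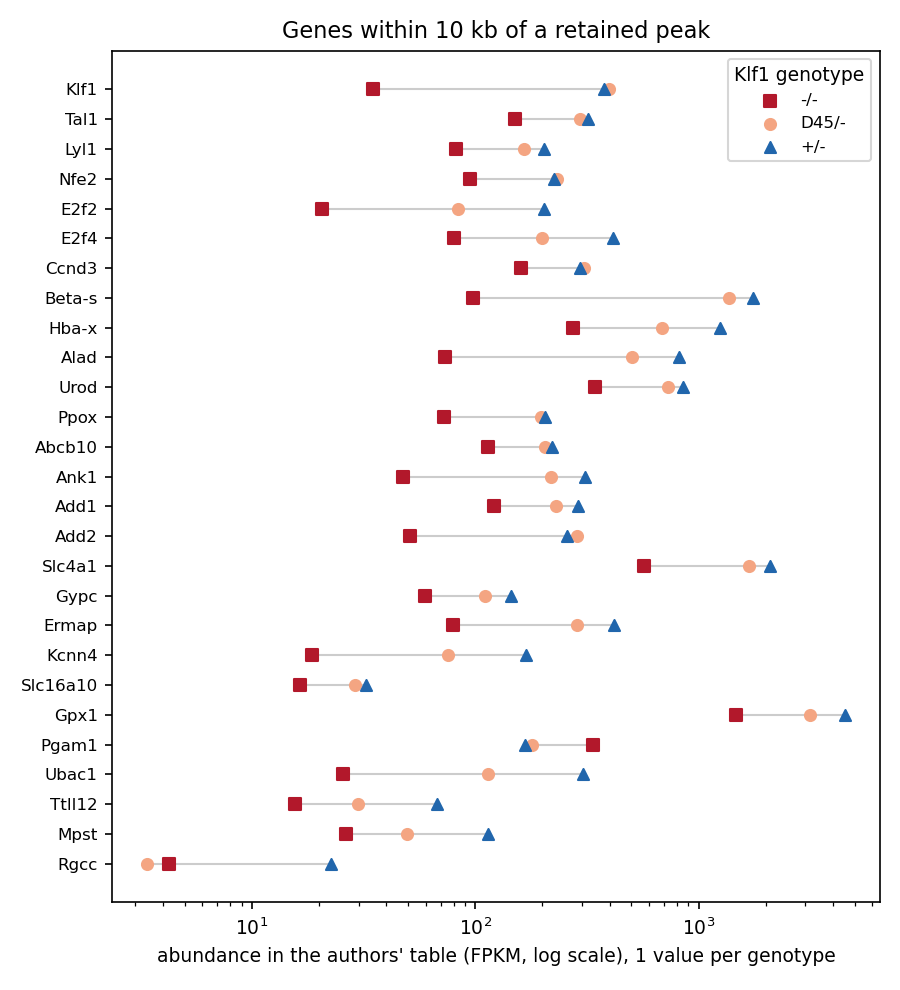
FPKM on a log scale in +/-, D45/- and -/- livers for named genes within 10 kb of a retained peak, 1 value per genotype from the authors' deposited table and so no error bars. Klf1 is at 378, 398 and 34.8 FPKM, while E2f2 and Kcnn4 fall at each step from +/- to D45/- to -/-.

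Genes higher in -/- near members were few. Mt1, in the authors' deposited table, was at 2071 FPKM in +/-, 1983 FPKM in D45/- and 6375 FPKM in -/-, and Mt2 at 2486, 2254 and 6669 FPKM. Both code for metallothioneins, proteins that bind zinc and copper. A member lay 21 bases before the start of Mt1 with 8.08 and 8.20, and another 43 bases after the start of Mt2 with 6.77 and 3.82. Pgam1 was at 168, 180 and 335 FPKM in the authors' deposited table, log2 ratios of 1.00 for -/- against +/- and -0.90 for D45/- against -/-, beside the fifth strongest member. Gpx1, a peroxidase that removes hydrogen peroxide, was the other of the 12 listed glycolysis and redox genes near a member. It was lower in -/-, at 4523, 3157 and 1470 FPKM in the authors' deposited table. Another 5 genes of that list lay near a wildtype-only peak alone. Ankrd37, an ankyrin repeat gene, was at 3.87, 3.07 and 24.0 FPKM in the authors' deposited table, with 6.17 and 2.93 at its member.

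Of the listed markers of other cell types, 1 lay near a member, Nfe2, which stands in both the megakaryocyte and the erythroid list. Of the listed marker genes, 18 of 22 megakaryocyte, 10 of 14 granulocyte, 6 of 16 macrophage and 4 of 15 hepatocyte genes are in the table, and 17, 10, 4 and 1 of them were called higher in -/- than in +/-. Summed in the authors' deposited table, the FPKM of the 8 megakaryocyte genes with all 3 values was 478 in +/-, 643 in D45/- and 763 in -/-. That sum includes Nfe2, at 225, 232 and 94.8 FPKM in the same order, which is a large part of the +/- sum and was lower in -/-. The same sum was 1112, 1189 and 2381 FPKM for 9 granulocyte genes, 223, 243 and 442 FPKM for 5 macrophage genes, and 213, 116 and 251 FPKM for 2 hepatocyte genes in the authors' deposited table. A gene has all 3 values only if it was called in at least 2 comparisons. Of the listed genes, 9 of 10 granulocyte and 5 of 6 macrophage genes were called lower in D45/- than in -/-. The order of the sums thus follows in part from the calls. None of the listed markers was at 0 in +/-. Their part in the lower values of red cell genes in -/- was not tested. Of 11 listed genes of late maturation and enucleation, 0 lay near a member and 3 near a wildtype-only peak, beside the 5.70% and 11.7% of all listed genes.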

How the data were processed

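KLF1 peaks and mRNA of mouse fetal liver were analysed from the deposited files. Per the deposited description sheet, the authors mapped paired-end chromatin reads to mm9 with Bowtie2, removed duplicates with Picard and called peaks with MACS2. Per the file headers the summits carry a pileup signal, a fold over local background and a −log10 q-value. Chromatin libraries were pools of 2 replicates, so peaks were called on pooled samples and no replicate check exists. Where a peak was split, its summit of highest fold was kept.

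The authors' deposited table holds cuffdiff comparisons, with TopHat2 2.0.10 and mm9 named in the submitters' processing notes. Per the file headers, the authors' table gives a log2 ratio without pseudocount, a test statistic (a score, not used here), a p-value and a q-value, for called genes alone. Its abundances are taken to be FPKM from the layout of cuffdiff, since the unit is not named. The annotation and options of cuffdiff were not given in the sources used here. With 1 FPKM per genotype over 3 replicates, no SD stands beside a value, and the depth is unknown. Nothing says that replicates came from separate litters, so the authors' p-values may measure technical spread. From the q-values, 12965 genes were taken as tested per comparison. Starts of the deposited loci were read as counted from 0, which made 472 of 1636 matched loci equal in length to RefSeq, and 49 otherwise.

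Peaks were compared by overlap of at least 1 base, and with loci within 10 kb, in Python 3.11.15 with numpy 2.4.6, pandas 2.3.3 and scipy 1.17.1, and figures were drawn with matplotlib 3.10.9. The overlap code was tested on simulated data. Exact Clopper-Pearson 95% intervals cover counting error only, and peaks and genes are not independent replicates. RefSeq promoters (GRCm38.p6) gave strand and sequence by symbol, for 92 of the 116 genes near members. No coordinates were converted between builds. Members, 13 gene lists and tests were chosen with earlier results of these data known. Peaks were named as the 10 strongest and 5 weakest in wildtype, the 5 strongest in MommeD45 and the 3 closest to each side of the overlap rule. Genes were named if within 10 kb of a member and called in D45/- against +/-, among the 10 lowest or 5 highest in -/- against +/- at 5 FPKM or more, or on a list, which gave 46, and part of them are described; 1 gene that the rule takes is counted but not reported here. Members with the largest and smallest ratio of folds, the wildtype-only peaks set beside members and the 6 sequences were chosen after their values were seen. Alternatives covered overlap, peak threshold, distance, gene q, abundance and a pseudocount.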

Additional observations from a re-analysis of the deposited data

How the results depend on the processing

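Of 32 alternative values, 28 stayed within 1.5 times the reported count or within the interval of the reported median. The number of retained peaks was 361, and it was between 271 and 357 under other overlaps and peak thresholds, all of them stricter, so they could only lower it. With both lists held to a −log10 q of at least 5, the median wildtype fold of retained peaks was 7.19 and the median distance between summits was 18 bases. Within 50 kb of the locus in place of 10 kb, 169 members were near a listed gene and 21 near a gene lower in D45/- than in +/-. That distance takes in more genes by construction, and for the stricter peak list the cause was not tested. Members near a gene lower in -/- than in +/- numbered between 63 and 134 over all alternatives, those near a gene lower in D45/- between 10 and 21, and those near any listed gene between 79 and 169. No paired analysis was possible because the deposited gene table gives 1 value per genotype and each chromatin genotype has 1 library, and for the same reason no replicate could be left out. The depth of the libraries is unknown, so a wildtype-only peak may have been below the authors' threshold in MommeD45 and is not shown to be unbound there.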

Other observations

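Of the 116 genes near retained peaks, 5 on no list were picked after their values were seen, and they stand for no group. Pola2 and Prim2, which belong to the polymerase alpha and primase complex, were at 67.7 and 45.1 FPKM in +/- and at 36.2 and 25.4 FPKM in -/- in the authors' deposited table. Pole3, a histone-fold subunit of polymerase epsilon, was at 175 FPKM in +/-, 173 FPKM in D45/- and 89.9 FPKM in -/- in the authors' deposited table. The tubulin genes Tuba1c and Tubb4b were at 59.9 and 1389 FPKM in +/- and at 26.7 and 709 FPKM in -/- in the authors' deposited table. All 5 were called lower in -/- than in +/-, with log2 ratios from -1.16 to -0.83, and none was called between D45/- and +/-.

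Herc1, a large ubiquitin ligase gene, had both kinds of peak. A member 444 bases before its start had a fold of 4.74 in wildtype and 4.95 in MommeD45, while the peak of 33.6 inside the locus, the strongest of the wildtype-only peaks, had no MommeD45 peak over it. Herc1, in the authors' deposited table, was at 43.6 FPKM in +/-, 33.1 FPKM in D45/- and 17.2 FPKM in -/-, a log2 ratio of -1.34 for -/- against +/-, and it was not called between D45/- and +/-.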
